A study of Mus musculus with 9 samples.

Results

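The genes described here encode the kinases and phosphatases through which calcium, cAMP and diacylglycerol act inside a cell, with their regulatory subunits and inhibitors. They were chosen by symbol: every gene of the table named as a calcium/calmodulin-dependent kinase (CaMK), protein kinase A (PKA), protein kinase C (PKC), protein phosphatase 1 (PP1), protein phosphatase 2A (PP2A) or calcineurin gene, 98 of 23528 gene symbols (0.417%). They fall into 13 CaMK, 6 PKA, 11 PKC, 46 PP1, 17 PP2A and 5 calcineurin symbols. Cells of the hypothalamic paraventricular nucleus of juvenile C57Bl6/N mice, 21 to 28 days old, had been captured singly on a microfluidic chip, and their mRNA was counted per gene as molecules, the name the authors gave their values. All 9 cells carry the one label secretagogin-positive, so there is no treated, mutant or control group, and the sources used here do not say how they were chosen among the captured cells. Cells carry the numbers 1 to 9 of their labels. Since the labels name no animal, the 9 cells count as 1 sample, and no test was made. Each interval is an exact 95% interval for counting error alone.

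PKA is a tetramer of regulatory and catalytic subunits, and cAMP binding to the regulatory subunits frees the catalytic ones, which phosphorylate, among others, the transcription factor CREB. CaMKII and calcineurin are both switched on by calcium-bound calmodulin, the first as a kinase of synapses and the second as a phosphatase made of a catalytic A and a calcium-binding B subunit. Conventional PKC isoforms need calcium and diacylglycerol, while atypical ones need neither. PP1 and PP2A carry out much of the serine/threonine dephosphorylation of a cell, and their many regulatory subunits set where and on what they act. In the paraventricular nucleus, cAMP and PKA act on the neuroendocrine neurons that make corticotropin-releasing hormone.

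The cells differed in depth, from 1021 gene molecules in cell 1 and 3393 in cell 6 to 26466 in cell 5, with a median of 9573. A gene counted as 0 could have had up to 29.4 molecules per 10000 in cell 1, 8.84 in cell 6 and 1.13 in cell 5, taking 3 molecules as the limit of a count of 0. Spike-in molecules numbered 1962 to 2184 in cells 1 to 8 (lane 3) and 614 in cell 9 (lane 4). The share of mitochondrial molecules ran from 4.31% in cell 9 to 34.2% in cell 6. Scgn, the gene for secretagogin, had 1, 11, 1, 3 and 1 molecules in cells 2, 3, 5, 8 and 9, and was at 0 in the other 4 cells. At these depths a count of 0 does not show that the gene was silent, so it does not contradict the label. All 9 cells held neuronal marker molecules, 31 to 251 over 10 markers, those of cell 1 from 2 of the markers. In 4 cells, 3 or more markers of a further cell type were also present with 2 or more molecules each. These were cell 4 with 2507 blood and 115 endothelial marker molecules, and cell 5 with 382 oligodendrocyte ones. The others were cell 7 with 52 endothelial ones, and cell 8 with 303 ependymal and tanycyte and 29 astrocyte ones. Cell 4 also had 9 mural marker molecules, but only 1 mural marker at 2 or more molecules, which is below this rule. Apart from these sums, no cell had over 17 molecules of any of these lists, the fibroblast list reached 2, and every marker of microglia and of oligodendrocyte precursors was at 0. These 4 cells are called the mixed-marker cells, and values without them are given where they move a median level or a share printed here by over 1.5 times.

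Most of the kinase and phosphatase genes were detected, but in few cells. At least 1 molecule in at least 1 cell was found for 72 of the 98 genes (73.5%), against 41.4% of all gene symbols. Detection in at least 5 of the 9 cells was found for 17 genes (17.3%), against 7% of all gene symbols. The other 55 detected genes were in 1 to 4 cells, 26 were at 0 in every cell, and none was in 8 or 9 cells. Compared with all symbols, of which 58.6% were at 0 in every cell, the genes had larger shares at each number from 1 to 7 cells. At 8 and 9 cells all symbols had 0.527% and 0.196%, so the genes were behind there.

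**Figure D1:**
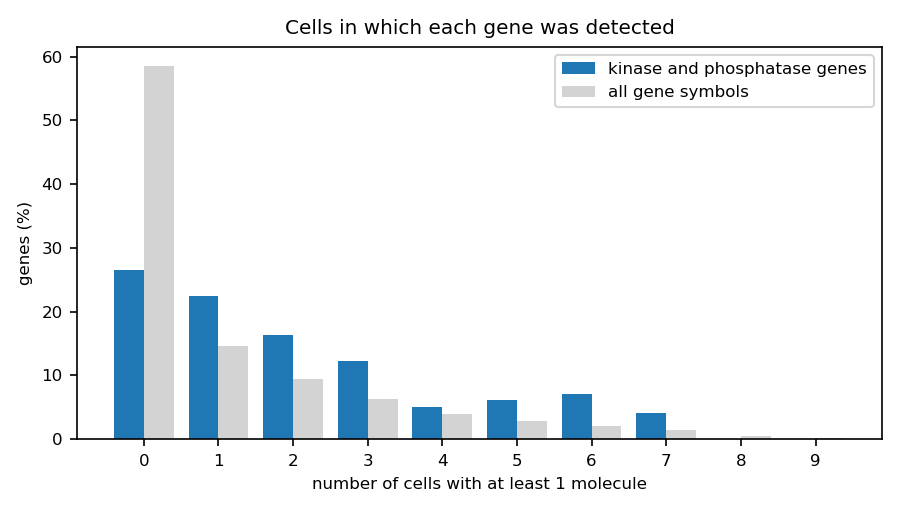
The share of genes (%, y axis) detected with at least 1 molecule in 0 to 9 cells (x axis), for the 98 kinase and phosphatase genes and for all 23528 gene symbols. The kinase and phosphatase genes have a smaller bar at 0 cells and larger ones at 1 to 7 cells, and no bar at 8 or 9.

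The 542 molecules of these genes were thinly spread. Of the 882 gene and cell values, 210 were above 0, and 103 of those (49.0%) were a single molecule. Only 5 genes reached 20 molecules over the 9 cells: Prkacb with 65, Prkar1b with 51, Prkar1a with 30, Ppp1r15a with 22 and Ppp3r1 with 20. The first 3, all PKA subunits, held 26.9% of all molecules of the set. The summed level of the 98 genes was 29.4 molecules per 10000 in cell 1 (6.06 to 85.9), 91.9 in cell 2 (73.7 to 113), 55.0 in cell 3 (41.9 to 70.9), 31.6 in cell 4 (22.4 to 43.4), 65.4 in cell 5 (56.0 to 75.9), 82.5 in cell 6 (54.8 to 119), 44.7 in cell 7 (30.6 to 63.1), 42.5 in cell 8 (32.1 to 55.2) and 83.0 in cell 9 (64.1 to 106). Cells 2, 6 and 9 were high and cells 4, 7 and 8 low, with the interval of cell 2 above those of cells 3, 4, 7 and 8. The mixed-marker cells had 31.6 to 65.4 molecules per 10000 and the other 5 cells 29.4 to 91.9, ranges that overlap; without the shallow cell 1 the other 4 had 55.0 to 91.9. The part of the markers of other cell types in this pattern was not tested.

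The cells also differed in how many of the genes they held. The number detected was 3 in cell 1, 14 in cell 6, 16 in cell 7, 24 in each of cells 3, 4 and 9, 30 in cell 8, 32 in cell 2 and 43 in cell 5. As shares of all gene symbols detected in cells 1 to 9, these were 0.609, 0.916, 0.692, 1.00, 0.778, 1.23, 0.623, 0.729 and 0.853%. By that share cell 6 was highest, and cell 5 was at the median. Depth moved with the number detected, so the number expected at an equal depth was computed. At 7160 molecules, the depth of cell 7, cell 2 would have shown 28.1 of the genes, cell 9 23.2, cell 5 23.0, cell 8 20.6, cell 3 19.3, cell 4 16.7 and cell 7 itself 16. Cells 1 and 6 are shallower than this. At 1021 molecules, the depth of cell 1, the numbers were 3, 7.84, 4.68, 3.07, 5.68, 6.39, 3.85, 4.08 and 6.96 in cells 1 to 9. Cell 5, with the most genes at full depth, thus stood behind cell 2 at each equal depth. Of the 72 detected genes, 23 (31.9%) were found in mixed-marker cells alone, 5 of them in cell 5 alone. The same held for 34.1% of all detected gene symbols, so the share was near the background, and these 4 cells held 64.4% of all gene molecules.

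**Figure D2:**
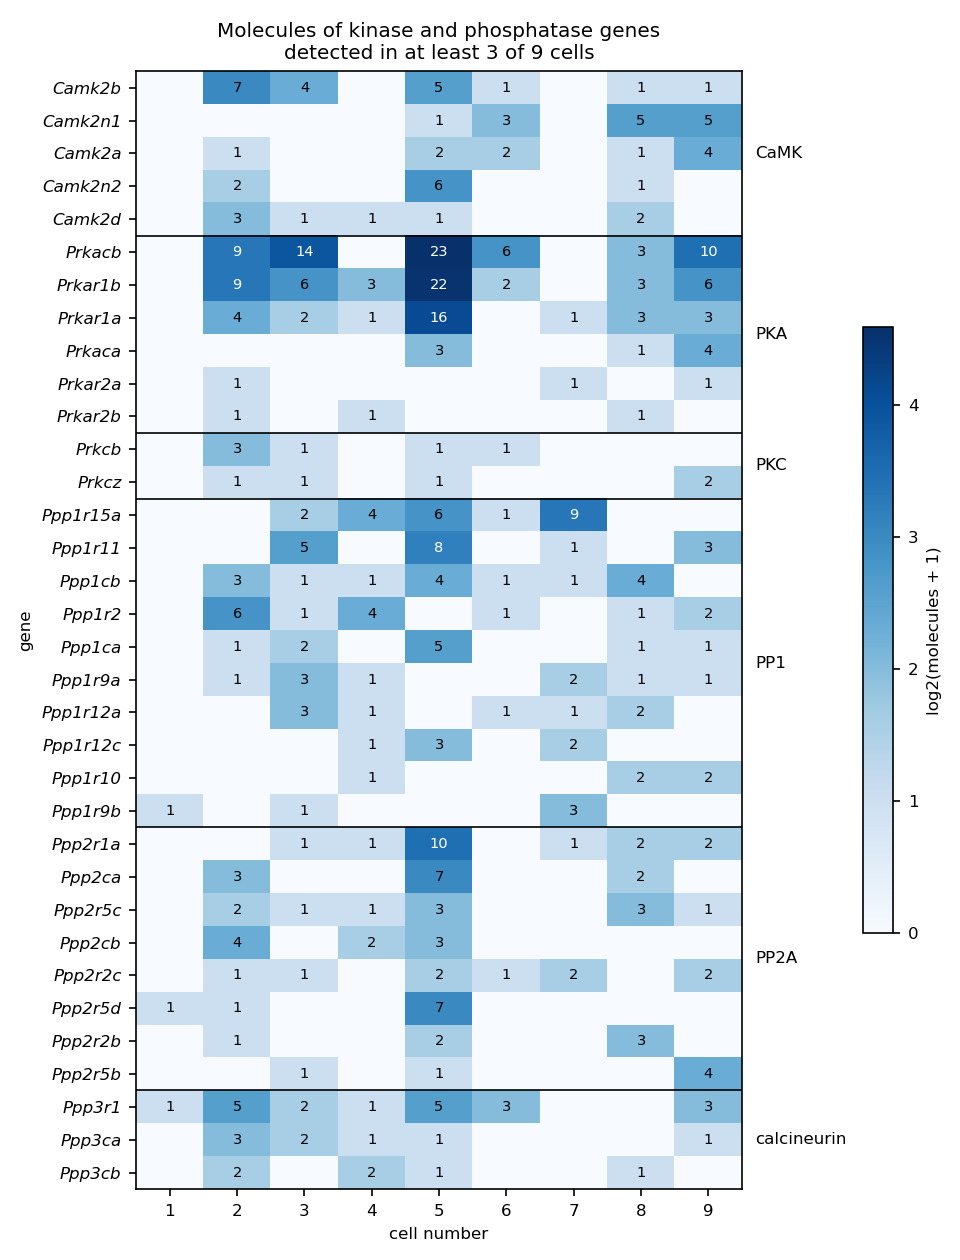
Molecules of the 34 kinase and phosphatase genes detected in at least 3 of the 9 cells, with genes down the page by group, cells across, the number printed in each field and the colour giving log2(molecules + 1). Prkacb, Prkar1b and Prkar1a form the darkest block, while most other fields hold 0 or 1 molecule.

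By summed level, PKA and PP1 stood above the other 4 groups. The median level over the 9 cells was 7.56 molecules per 10000 for CaMK (0 to 20.9), 20.5 for PKA (0 to 30.7), 3.83 for PKC (0 to 5.89), 16.6 for PP1 (9.79 to 27.9), 9.11 for PP2A (2.95 to 16.7) and 3.73 for calcineurin (0 to 10.4). Without the mixed-marker cells the median of CaMK was 12.8 and that of calcineurin 8.84. PKA reached its level with 6 genes and PP1 with 24 detected genes of 46. PKA had the most molecules of any group in 4 cells and PP1 in 3, and the remaining cells were ties for the most. The order of these 2 groups was not firm: without cell 2, 5, 6 or 9 the median of PKA was 14.4, below the 15.1 to 17.2 of PP1. Divided by transcript length, the medians were 19.0 for PKA and 18.6 for PP1. Counts of molecules need not rise with transcript length, which was not tested here. Values per kilobase, here and below, are therefore an alternative and not a correction. Per spike-in molecule PP1 was ahead, at 19.2 against 10.9 for PKA on the same scale.

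**Figure D3:**
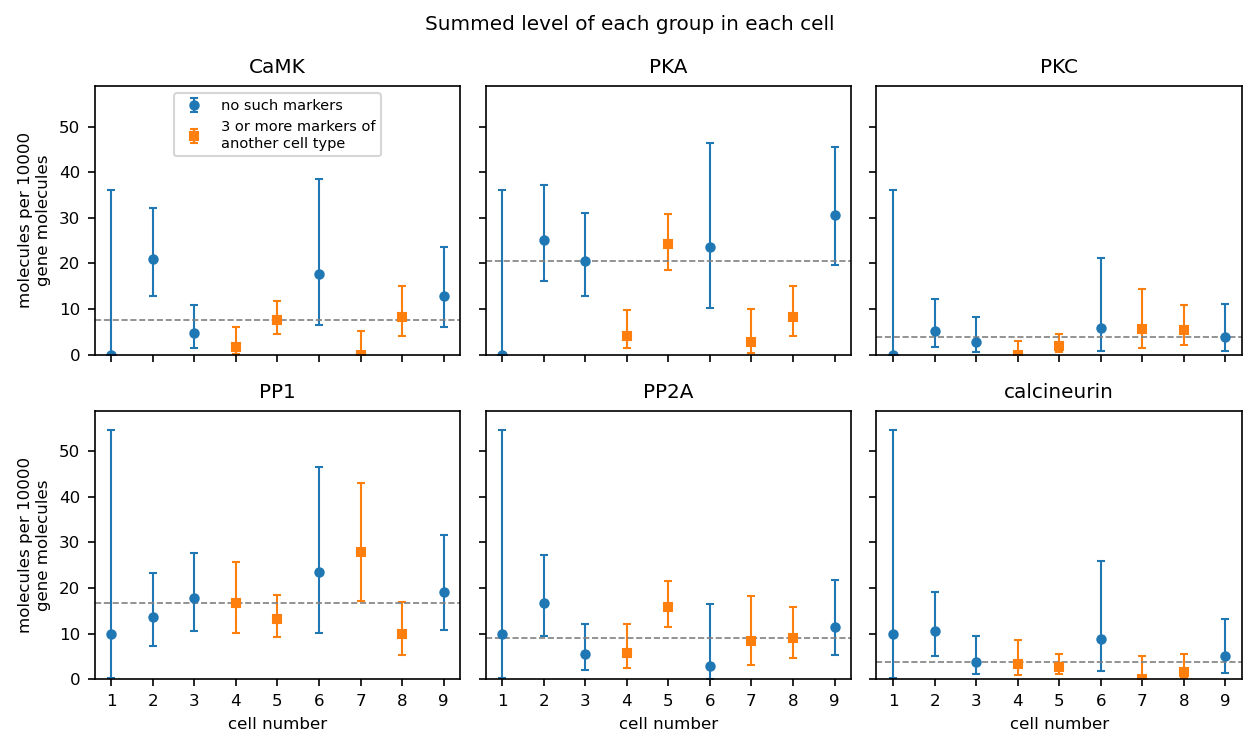
Summed level of each group in each cell, in molecules per 10000 gene molecules, with exact 95% Poisson intervals; squares are the 4 mixed-marker cells, circles the other 5, and the dashed line is the median over cells. PKA is at 0 in cell 1, at 2.79 to 8.35 in cells 4, 7 and 8 and at 20.5 or more in cells 2, 3, 5, 6 and 9, whereas PP1 lies between 9.79 and 27.9 in every cell.

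All 6 PKA genes were detected, and they held 160 of the 542 molecules (29.5%). Prkacb, the catalytic subunit beta (chr3:146729574-146812990, minus strand, GRCm38), had 0, 9, 14, 0, 23, 6, 0, 3 and 10 molecules in cells 1 to 9. It was highest by molecules in cell 5, the deepest cell, and at 0 in cells 1, 4 and 7. As a level it was 17.7 molecules per 10000 in cell 6 (6.49 to 38.5), then 13.0, 12.8, 9.40 and 8.69 in cells 3, 9, 2 and 5, with overlapping intervals, and 2.28 (0.470 to 6.65) in cell 8. Its paralog Prkaca, the catalytic subunit alpha, had 3, 1 and 4 molecules in cells 5, 8 and 9. Prkacb made up 89.0% of the 73 molecules of the pair (79.5 to 95.1%), or 81.0% per kilobase of transcript, and led in all 6 cells that had either gene.

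Among the regulatory subunits the type I genes dominated. Prkar1b, the regulatory subunit RI beta (chr5:139017306-139150001, minus strand), had 0, 9, 6, 3, 22, 2, 0, 3 and 6 molecules in cells 1 to 9. Prkar1a, RI alpha (chr11:109649405-109669656, plus strand), had 0, 4, 2, 1, 16, 0, 1, 3 and 3 molecules in the same cells. By molecules cell 5, the deepest cell, was highest for both genes, and cell 1 had neither. By level Prkar1b was highest in cell 2, at 9.40 (4.30 to 17.8), against 8.31 (5.21 to 12.6) in cell 5. The level of Prkar1a was highest in cell 5, at 6.05 (3.46 to 9.82), against 4.18 (1.14 to 10.7) in cell 2. For each gene the intervals of cells 2 and 5 overlap. Prkar2a and Prkar2b, the RII subunits, had 1 molecule in each of 3 cells and 3 molecules each in all. Prkar1b held 58.6% of the 87 regulatory molecules (47.6 to 69.1%) and 65.8% per kilobase, while Prkar1a held 34.5% and 29.1% per kilobase. Prkar1b led in 6 of the 8 cells with a regulatory subunit. Per kilobase Prkar1b was also ahead of Prkacb, at 19.3 against 15.0 molecules summed over cells, although a same-strand gene, Gm15672, overlaps it and reads of the pair may have been split or shared. Prkar1a was concentrated in cell 5, which held 53.3% of its molecules (34.3 to 71.7%) and 29.0% of all gene molecules.

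Catalytic PKA genes were found in 6 cells and regulatory ones in 8. Prkacb and Prkar1b were together in 6 cells, Prkar1b was without Prkacb in cell 4, and neither was in cells 1 and 7, though cell 7 had 1 molecule each of Prkar1a and Prkar2a. The PKA level was 4.16, 24.2, 2.79 and 8.35 molecules per 10000 in the mixed-marker cells 4, 5, 7 and 8, against 25.1, 20.5, 23.6 and 30.7 molecules per 10000 in cells 2, 3, 6 and 9 and 0 in the shallow cell 1. The 3 low cells were thus ones with blood, endothelial or ependymal markers, and cell 5, with oligodendrocyte markers, was not low; whether those markers have a part in the low values was not tested. The 5 cells with Scgn molecules had 8.35 to 30.7 molecules of PKA per 10000 and the 4 without had 0 to 23.6, which overlap.

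**Figure D4:**
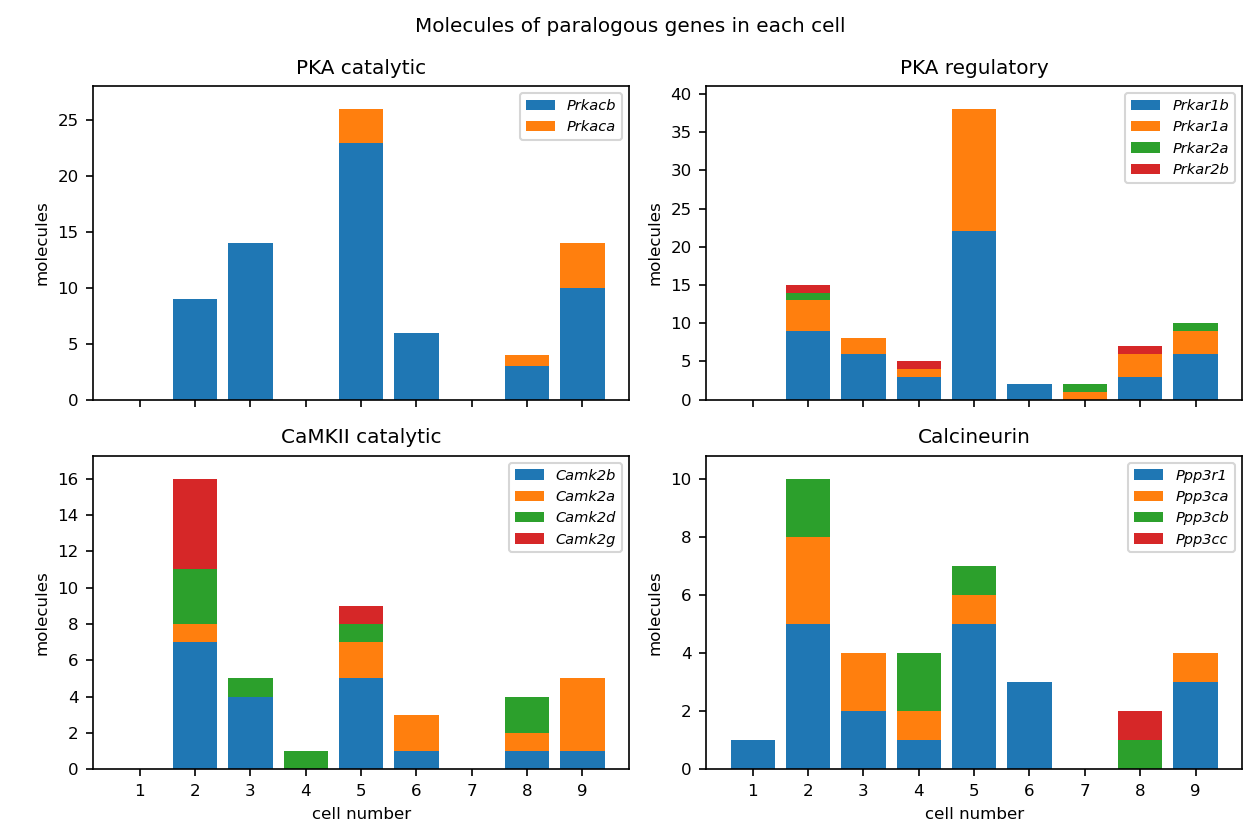
Molecules of paralogous genes stacked in each cell (y axis) for the catalytic and the regulatory PKA subunits, the catalytic CaMKII genes and calcineurin. Prkacb fills nearly all of the PKA catalytic bars, Prkar1b and Prkar1a nearly all of the regulatory bars, and the CaMKII and calcineurin bars have no single gene of that weight.

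A cAMP response element is the DNA motif bound by CREB, one of the transcription factors that PKA phosphorylates, so the promoters of the genes were searched for it. RefSeq promoter windows, 250 bases before to 50 after each start on GRCm38.p6, were used for 72 of the 98 genes, 101 windows in all. The genes detected in at least 1 cell were also 72 in number. The full element TGACGTCA, which reads alike on both strands, was in 8 of the 101 windows (7.92%), against 588 of 32851 windows of all genes (1.79%). These 8 windows belong to 6 genes, Prkar1a, Prkcz, Ppp1r12c, Ppp1r15a, Ppp2ca and Ppp2r2d, each detected in at least 1 cell. Overlapping windows of Prkar1a, and of Ppp2r2d, hold the same element. By gene, the element was in 8.33% of the 72 genes and in 2.03% of all genes with windows. The background was not limited to genes detected in these cells, so the shares are not matched for expression. The shorter core TGACG, counted on both strands and included in every full element, was in 36.6% of the 101 windows and in 20.8% of all windows. A match of letters is no evidence that a factor binds. Shown are the 3 genes of the 6 that had 10 or more molecules, with the full element in capitals, and the most upstream of 3 windows of Prkacb, the gene with most molecules, whose capitals are that core read on the other strand. The windows are chr11:109650699-109650998 (plus strand) for Prkar1a, chr7:45526219-45526518 (minus strand) for Ppp1r15a, chr11:52098574-52098873 (plus strand) for Ppp2ca and chr3:146812897-146813196 (minus strand) for Prkacb, each written 5′ to 3′ along the gene.
Prkar1a: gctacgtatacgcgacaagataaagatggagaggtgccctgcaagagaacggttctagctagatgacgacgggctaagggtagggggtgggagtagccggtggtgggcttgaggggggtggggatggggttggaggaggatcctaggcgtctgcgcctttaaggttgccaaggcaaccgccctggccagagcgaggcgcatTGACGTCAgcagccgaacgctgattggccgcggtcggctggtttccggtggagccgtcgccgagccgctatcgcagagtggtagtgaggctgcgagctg
Ppp1r15a: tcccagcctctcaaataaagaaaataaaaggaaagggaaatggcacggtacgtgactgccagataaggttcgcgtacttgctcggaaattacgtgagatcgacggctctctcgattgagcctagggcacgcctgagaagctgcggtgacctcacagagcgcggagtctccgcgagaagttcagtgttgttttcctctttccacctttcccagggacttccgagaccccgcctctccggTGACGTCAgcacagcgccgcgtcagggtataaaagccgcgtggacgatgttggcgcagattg
Ppp2ca: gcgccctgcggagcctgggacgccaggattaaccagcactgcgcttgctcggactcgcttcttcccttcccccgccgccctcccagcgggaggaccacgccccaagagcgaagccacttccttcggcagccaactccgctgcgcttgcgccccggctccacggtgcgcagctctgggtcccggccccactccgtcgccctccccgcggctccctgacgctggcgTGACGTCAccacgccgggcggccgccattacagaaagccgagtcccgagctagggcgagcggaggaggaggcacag
Prkacb: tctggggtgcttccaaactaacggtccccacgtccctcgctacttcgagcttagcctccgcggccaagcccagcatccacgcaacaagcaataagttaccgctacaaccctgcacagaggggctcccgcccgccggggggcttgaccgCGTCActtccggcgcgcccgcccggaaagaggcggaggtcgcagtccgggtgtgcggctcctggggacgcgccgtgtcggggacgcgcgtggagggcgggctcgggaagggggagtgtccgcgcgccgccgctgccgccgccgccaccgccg
The element starts at base 202 of the window of Prkar1a, 239 of Ppp1r15a and 225 of Ppp2ca, counted from the 5′ end. It thus lies within 50 bases upstream of the start in each of these 3 windows. In another window of Prkar1a, chr11:109650612-109650911, the same element starts at base 289, downstream of the start of that window. The core in the window of Prkacb starts at base 149. The 3 genes with the full element were not alike in the cells: Prkar1a was in 7 cells, Ppp1r15a in 5 and Ppp2ca in 3, with their most molecules in cell 5, cell 7 and cell 5.

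Of the 13 CaMK genes 11 were detected, with 74 molecules (13.7%), and 3 of them, Camk2b, Camk2a and Camk2d, were in 5 or more cells. Camk2b, the beta chain of CaMKII (chr11:5969644-6066362, minus strand), had 0, 7, 4, 0, 5, 1, 0, 1 and 1 molecules in cells 1 to 9. Camk2a, the alpha chain, which is the main one of the adult forebrain, had 1, 2, 2, 1 and 4 molecules in cells 2, 5, 6, 8 and 9. Camk2d, the delta chain, had 3, 1, 1, 1 and 2 molecules in cells 2, 3, 4, 5 and 8. Camk2g, the gamma chain, had 5 molecules in cell 2 and 1 in cell 5. Of the 43 CaMKII molecules, Camk2b held 44.2% (29.1 to 60.1%), Camk2a 23.3%, Camk2d 18.6% and Camk2g 14.0%, and per kilobase 47.6%, 20.8%, 15.0% and 16.7%. Camk2b led in 3 of the 7 cells with CaMKII and Camk2a and Camk2d in 2 each, so no single chain was ahead in most cells. Only cells 2 and 5 held all 4 chains. Cell 2 had a CaMK level of 20.9 molecules per 10000 (12.8 to 32.3), against 7.56 in cell 5 (4.62 to 11.7).

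Both genes for inhibitor proteins of CaMKII were detected. Camk2n1 had 1, 3, 5 and 5 molecules in cells 5, 6, 8 and 9, and Camk2n2 had 2, 6 and 1 in cells 2, 5 and 8. Camk2n1 held 60.9% of the 23 inhibitor molecules (38.5 to 80.3%) but 31.1% per kilobase, because its transcript is the longer, and 81.25% of the molecules without cell 5. CaMKII and an inhibitor were together in 5 cells, CaMKII was alone in cells 3 and 4, and neither was found in cells 1 and 7. The other CaM kinases and the CaM kinase kinases that activate them had few molecules: Camk1g in cell 5, Camk4 in cell 2 and Camkk2 in cells 4 and 5 had 2 molecules each, and Camkk1 in cell 5 and Camk1d in cell 8 had 1 each. Camk1 and the kinase-like Camkv were at 0 in all 9 cells.

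PKC genes were detected in 10 of 11 cases, but none in 5 or more cells, and they held 29 molecules (5.35%). Prkcb, a conventional isoform, had 3, 1, 1 and 1 molecules in cells 2, 3, 5 and 6. Prkcz, an atypical isoform, had 1 molecule each in cells 2, 3 and 5 and 2 in cell 9. Prkca had 3 molecules, Prkce and Prkch 2 each, and Prkcd and Prkci 1 each, while Prkcq, the theta isoform best known from T cells, was at 0. At these counts no order among the isoforms can be read. A further 8 molecules of the group belong to genes that share only the name: Prkcdbp, the caveolar protein now named Cavin3, with 5 molecules in cell 8, and Prkcsh, the beta subunit of glucosidase II, with 1 in cell 3 and 2 in cell 7. Without them the median PKC level was 1.89 in place of 3.83 molecules per 10000.

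PP1 had 46 symbols, 24 of them detected, with 144 molecules (26.6%), of which 26 belonged to the catalytic genes. Ppp1cb, the catalytic subunit beta, had 3, 1, 1, 4, 1, 1 and 4 molecules in cells 2 to 8 and 0 in cells 1 and 9. Ppp1ca, the alpha subunit, had 1, 2, 5, 1 and 1 molecules in cells 2, 3, 5, 8 and 9, and Ppp1cc, the gamma subunit, had 1 in cell 5. Ppp1cb held 57.7% of the catalytic molecules (36.9 to 76.6%) against 38.5% for Ppp1ca (20.2 to 59.4%). Only when divided by the longest transcript of each gene was the order reversed, with 25.9% for Ppp1cb and 69.9% for Ppp1ca. Molecule counts may not call for that division.

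The PP1 gene with most molecules was a regulatory subunit, Ppp1r15a (chr7:45522916-45526268, minus strand), although per kilobase Ppp1r11 was ahead of it, at 10.6 against 7.83 molecules summed over cells. It encodes GADD34, a stress-induced subunit that brings PP1 to the translation factor eIF2 alpha. Ppp1r15a had 0, 0, 2, 4, 6, 1, 9, 0 and 0 molecules in cells 1 to 9, so that the cells with it were cells 3 to 7. Cell 7 held 40.9% of them (20.7 to 63.6%) with 7.84% of all gene molecules, a level of 12.6 molecules per 10000 (5.75 to 23.9), against 3.33 (0.906 to 8.52) in cell 4 and 2.27 (0.832 to 4.93) in cell 5. Cell 7 carries endothelial markers, and its part in this value was not tested. Fos, an immediate-early gene chosen after its values were seen, had levels of 9.79, 10.4, 19.6, 16.6, 2.64, 14.7, 36.3, 25.8 and 6.39 molecules per 10000 in cells 1 to 9. Fos was thus highest in cell 7 too, and second in cell 8, where Ppp1r15a was at 0. Atf3, looked at beside Fos, had 4, 1, 3 and 9 molecules in cells 4, 6, 7 and 8. It was at 0 in the other cells and highest in cell 8, not in cell 7. The part of either gene in the value of Ppp1r15a was not tested. Ppp1r15b, the constitutive counterpart of Ppp1r15a, had 1 molecule each in cells 3 and 8.

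The next PP1 subunits were inhibitors. Ppp1r11, inhibitor 3 (chr17:36948356-36951741, minus strand), had 5, 8, 1 and 3 molecules in cells 3, 5, 7 and 9. Ppp1r2, inhibitor 2, had 6, 1, 4, 1, 1 and 2 molecules in cells 2, 3, 4, 6, 8 and 9. Cells 3 and 9 had both inhibitors, cells 5 and 7 had Ppp1r11 without Ppp1r2, and cells 2, 4, 6 and 8 had Ppp1r2 without Ppp1r11; in cells 6, 7 and 8 this rests on 1 molecule. Ppp1r9a and Ppp1r9b, neurabin and spinophilin, which hold PP1 at actin in dendritic spines, had 9 molecules over 6 cells and 5 over 3 cells. The myosin phosphatase subunits Ppp1r12a and Ppp1r12c had 8 molecules over 5 cells and 6 over 3 cells. Ppp1r17, a phosphatase inhibitor known from cerebellar Purkinje cells, had 2 molecules in cell 5 and 4 in cell 9. Ppp1r1b, which encodes DARPP-32, and Ppp1r1a, inhibitor 1, both PP1 inhibitors switched on by PKA, were at 0 in every cell. Of the 7 genes of the glycogen-targeting Ppp1r3 family 2 were detected, with 4 molecules, and the 3 Ppp1r2 pseudogenes were at 0. In all, 22 of the 46 PP1 symbols were at 0.

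All 17 PP2A genes were detected, with 100 molecules (18.45%), though 14 of them in 1 to 4 cells. PP2A is built from a scaffold, a catalytic and a variable regulatory subunit. Ppp2r1a, the main scaffold gene (chr17:20945311-20965916, plus strand), had 10 molecules in cell 5, 2 each in cells 8 and 9, and 1 each in cells 3, 4 and 7. It held 89.5% of the scaffold molecules (66.9 to 98.7%), against 2 molecules of Ppp2r1b, and cell 5 held 58.8% of its molecules (32.9 to 81.6%). The catalytic gene Ppp2ca had 3, 7 and 2 molecules in cells 2, 5 and 8, and Ppp2cb had 4, 2 and 3 in cells 2, 4 and 5. Their order was not fixed: Ppp2ca held 57.1% of the 21 molecules (34.0 to 78.2%), but 21.6% per kilobase and 45.5% without cell 5.

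The variable subunits of PP2A came from several families. Ppp2r5c, of the B56 family, had 2, 1, 1, 3, 3 and 1 molecules in cells 2, 3, 4, 5, 8 and 9. Ppp2r5d, of the same family, had 1, 1 and 7 molecules in cells 1, 2 and 5, and Ppp2r5b had 1, 1 and 4 in cells 3, 5 and 9. Ppp2r2c, a brain-enriched subunit of the B55 family, had 1, 1, 2, 1, 2 and 2 molecules in cells 2, 3, 5, 6, 7 and 9, and Ppp2r2b, of the same family, had 6 over 3 cells. The remaining 8 PP2A genes, Ppp2r1b left out, had 1 to 4 molecules each. They include Ppp2r4, now named Ptpa, which encodes an activator of PP2A and not a variable subunit. No single variable subunit was found in more than 6 cells.

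The B subunit gene of calcineurin had 20 molecules and the A subunit genes together 15, with B ahead in 4 cells and A in 2. Ppp3r1, which encodes calcineurin B (chr11:17159263-17200375, plus strand), had 1, 5, 2, 1, 5, 3, 0, 0 and 3 molecules in cells 1 to 9. Wdr92 overlaps it on the same strand with 3 molecules. Of the catalytic A subunits, Ppp3ca had 3, 2, 1, 1 and 1 molecules in cells 2, 3, 4, 5 and 9, Ppp3cb had 2, 2, 1 and 1 in cells 2, 4, 5 and 8, and Ppp3cc had 1 in cell 8. Ppp3ca held 53.3% of the 15 molecules (26.6 to 78.7%) and Ppp3cb 40.0%, or 46.1% and 42.9% per kilobase, which cannot be told apart at this depth. Without the mixed-marker cells Ppp3cb held 25.0% of 8 molecules. Calcineurin A and B genes were together in 5 cells. The median calcineurin level was 3.73 molecules per 10000 over the 9 cells and 8.84 without the mixed-marker cells, which had 0 to 3.33 against 3.73 to 10.4 in the other 5. The counts behind this are small: cell 1 reached 9.79 (0.248 to 54.6) on 1 molecule and cell 6 8.84 (1.82 to 25.8) on 3, the intervals overlap across the cells, and without cell 1 the median of the other 4 was 6.98. Whether the markers of other cell types have a part in this was not tested. Ppp3r2, the testis form of the B subunit, was at 0.

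Summed over all genes of each kind, catalytic kinase molecules outnumbered catalytic phosphatase molecules in most cells. The lists are unequal, with 21 kinase and 8 phosphatase genes, so these sums do not compare single genes. Per detected gene the order was the other way, with a median of 2 molecules over all cells for kinases and 8.5 for phosphatases. Cells 1 to 9 had 0, 32, 21, 2, 44, 11, 2, 11 and 22 molecules of CaMK, PKA and PKC catalytic genes, 145 in all, and 0, 16, 5, 6, 22, 1, 1, 9 and 2 molecules of PP1, PP2A and calcineurin catalytic genes, 62 in all. Kinase molecules were ahead in 7 cells, phosphatase molecules in cell 4, and cell 1 had neither. The phosphatase share was 33.3% in cell 2 (20.4 to 48.4%), 19.2% in cell 3 (6.55 to 39.4%), 75.0% in cell 4 (34.9 to 96.8%), 33.3% in cell 5 (22.2 to 46.0%), 45.0% in cell 8 (23.1 to 68.5%) and 8.33% in cell 9 (1.03 to 27.0%). It was 8.33% of 12 molecules in cell 6 (0.211 to 38.5%) and 33.3% of 3 molecules in cell 7 (0.840 to 90.6%), which leaves cell 7 unplaced. The count rested in part on 1 gene: with Prkacb left out, a choice made after seeing the data, kinase molecules were 80 and were ahead in 5 cells, with phosphatase molecules ahead in 3. The median share was 33.3% over the 8 cells with any catalytic molecule and 13.8% without the mixed-marker cells, where kinase molecules were ahead in 4 of the 5 cells left.

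**Figure D5:**
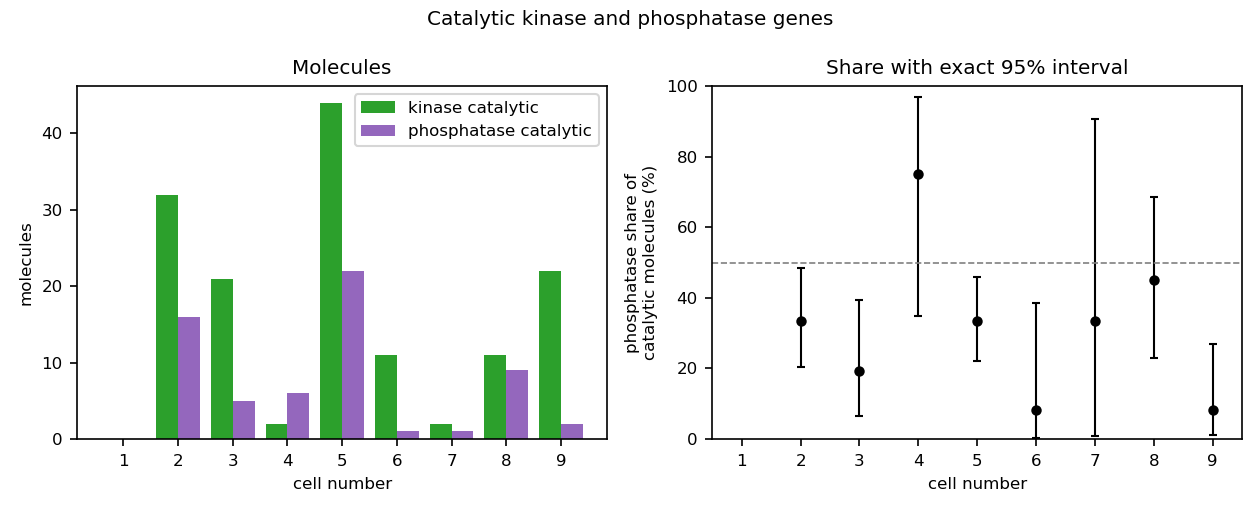
Left, molecules of catalytic kinase genes and of catalytic phosphatase genes in each cell; right, the phosphatase share of both (%) with exact 95% binomial intervals, the dashed line marking equal numbers. Kinase bars are the taller in 7 cells, and in cells 2, 3, 5, 6 and 9 the interval lies below the line. The bars sum 21 kinase and 8 phosphatase genes.

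Genes of the same pathways outside the symbol rule were looked at as 10 lists, 108 genes of the table, of which 17 were detected in 5 or more cells, 63 in 1 to 4 and 28 in none. Over all gene symbols, 7% were in 5 or more cells and 41.4% in at least 1, the background for each list too. The calmodulins, which link calcium to CaMKII and calcineurin, were among the genes with most molecules in these lists: Calm2 had 185 and Calm3 73, each in 8 cells, and Calm4 was at 0. In cells 4 and 7, where CaMKII had 1 and 0 molecules, Calm2 had 3 and 1. Of 10 adenylyl cyclase genes, which make cAMP, 6 were detected and none in 5 cells, with 18 molecules, 9 of them Adcy6. Of 13 phospholipase C and IP3 receptor genes 8 were detected, with 17 molecules, 8 of them Plcb1. Of 16 phosphodiesterase genes, 1 was in 5 or more cells and 7 in 1 to 4, with 33 molecules, led by Pde1a with 8 and Pde8b with 7.

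Partners and substrates gave larger sums, none of them divided by length. The 16 PKA anchor and inhibitor genes had 97 molecules, with Akap11 at 22, Akap9 at 15 and Pkib, a PKA inhibitor, at 13. The 7 PKC substrate genes had 116 molecules, with Gap43, a growth cone protein, at 76, Marcks at 15 and Marcksl1 at 11. The 7 genes of the CREB family had 20 molecules, 11 of them Crebbp, a co-activator. The 12 genes listed as calcineurin partners had 288 molecules, mostly the immunophilins Ppia at 235 and Fkbp1a at 26. Rcan2, a calcineurin regulator, had 10. The listing is no evidence that Ppia or Fkbp1a act on calcineurin in these cells. The 16 other serine/threonine phosphatase genes had 60 molecules, with Ppp5c, Ppp6r3 and Ppm1e at 8 each and none in 5 cells, and the 8 other PP2A and PP1 regulators had 51, with Set at 12, Ensa at 9 and Tiprl at 8.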

How the data were processed

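The deposited file, for 9 cells, holds 24378 gene rows and 92 spike-in rows of counts in whole numbers, which the authors named molecules. The mm10 build and Bowtie are named, with no version of the aligner, per the submitters' processing notes. The sources used here say neither how duplicates were collapsed nor whether strand was used, and overlapping genes therefore cannot be told apart. Of the 30 genes named in full by rule, 2 overlap another gene on the same strand and 10 on the other.

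A level is the number of molecules per 10000 molecules of a cell's genes, spike-ins left out. Positions and the longest transcript per gene came from GENCODE M21; 96 symbols matched as written and 2 (Ppp2r4, Prkcdbp) under a newer symbol. Expected detection at an equal depth was computed exactly from the counts and tested on simulated data. Intervals are exact Poisson for levels and Clopper-Pearson for shares. Depth was 1021 to 26466 gene molecules. No p-value was computed, since no animal is named. Doublets were not called in 9 cells; marker lists were summed instead.

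The gene set, lists and alternatives were chosen with earlier results of these data known. Genes named in full were the catalytic, PKA and calcineurin regulatory and CaMKII inhibitor genes in at least 3 cells or with 5 or more molecules in a cell, other members in at least 5 cells, the 3 members with most molecules in each group, and up to 3 genes of each pathway list; the others were named after their values were seen. A few genes are not reported here. Alternatives were other detection limits, totals, transcript length, thinning, and leaving out cells. Tools were matplotlib 3.10.9, scipy 1.17.1, numpy 2.4.6, pandas 2.3.3 and Python 3.11.15.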

Additional observations from a re-analysis of the deposited data

Results flagged for a closer look

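The level of each of 37 genes and group sums over the 9 cells was checked for a highest or lowest cell far from the rest by Dixon's criterion, and 7 met it. The criterion flags about 1 in 20 groups by chance for normal values, a rate that does not hold for levels that are mostly 0, so the 7 are descriptions only. Each has its highest value in 1 cell, in molecules per 10000, with the next cell after it. Cell 2 stood apart for Camk2d at 3.13 (next 1.52), for Camk2g at 5.22 (next 0.378) and for Ppp2cb at 4.18 (next 1.66). Cell 9, the only cell on lane 4, stood apart for Prkaca at 5.11 (next 1.13) and for Prkcz at 2.56 (next 1.04). Cell 7, with endothelial markers, stood apart for Ppp1r15a at 12.6 (next 3.33), and cell 8, with ependymal and astrocyte markers, for Prkcdbp at 3.79 (next 0). These values rest on 2 to 9 molecules, and lane, markers and cell cannot be told apart.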

How the results depend on the processing

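Counts of detected genes depended on the detection limit and on depth. Genes in at least 5 cells were 17, but 4 at a limit of 2 molecules, 2 at 3 molecules, an expected 0.503 with every cell thinned to 1021 molecules, and 4 when 7 of 9 cells were asked for. Genes in at least 1 cell were 72, but 33 at 3 molecules and an expected 29.3 after that thinning. Without the mixed-marker cells the median calcineurin level was 8.84 in place of 3.73 molecules per 10000, and kinase molecules were ahead in 4 cells in place of 7, with 5 cells left by construction. Leaving out each cell in turn gave 67 to 72 genes in at least 1 cell, 12 to 17 in at least 5, 6 to 7 cells with more kinase molecules, and median levels of 6.11 to 7.95 for CaMK, 14.4 to 22.0 for PKA, 3.31 to 4.53 for PKC, 15.1 to 17.2 for PP1, 8.74 to 9.45 for PP2A and 3.53 to 4.42 for calcineurin. Without the mixed-marker cells the median of CaMK was 12.8 in place of 7.56. PP1 had a higher median than PKA in place of a lower one per spike-in molecule and without cell 2, 5, 6 or 9, and a higher mean over cells, at 16.8 against 15.5. No paired analysis was possible because all 9 cells form 1 group. With 49.0% of the values above 0 being 1 molecule, depth limits most statements on single genes.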
